A study of Mus musculus with 12 samples.

Results

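Skin that received no ultraviolet light, from mice of the inbred strain C57BL/6, is described here by its microRNA (miRNA) composition: which miRNAs were abundant, which arm of each hairpin was kept, and how much of the total came from miRNAs typical of epidermis, muscle, blood and stroma. The members are the 3 control libraries of a series of 12, chosen by their sample titles. The other libraries came from skin given 90, 180 or 360 mJ/cm2 of ultraviolet B, 3 per dose, and no irradiated library is compared here. The control skin was labelled untreated and received a dose of 0 mJ/cm2, and the mice were 6 to 8 weeks old. The labels give neither body site nor sex and do not say whether each library came from a separate mouse, so the spread between libraries may be technical.

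A miRNA is a short RNA that guides an Argonaute protein to mRNAs and represses them. It is cut from a hairpin precursor that can yield a mature RNA from either side, called the 5p and the 3p arm, and usually one arm is loaded and the other degraded. The seed, bases 2 to 8 counted from the 5′ end, does most of the target pairing, so miRNAs with the same seed form a family. In skin, miR-203 and miR-205 are known as miRNAs of stratified epidermis, and mouse skin also carries a thin sheet of skeletal muscle, the panniculus carnosus, below the dermis.

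The authors' values for 1519 mature arms are in CPM, an arm's reads scaled so that each library totals 1000000. The control libraries held 8063815, 6044080 and 3764459 reads in replicates 1, 2 and 3, and 1 read was worth 0.124, 0.165 and 0.266 CPM. A count of 0 allows up to 3 reads, which is 0.372, 0.496 and 0.797 CPM. Such limits cover counting error only, since reads amplified without molecular identifiers are not independent molecules. Replicate 3, the shallowest library, stood apart from the other controls. The share of reads that would have to change identity to turn one profile into another was 8.31% between replicates 1 and 2, 14.3% between replicates 3 and 1 and 12.6% between replicates 3 and 2. Results that rest on 1 library are therefore given by library or also without it.

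Some arms could not be told apart in the table. Mature sequences from RefSeq (build GRCm38.p6) existed for 1282 of the 1519 arms, which carried 68.8%, 67.9% and 73.3% of the reads in replicates 1, 2 and 3. They are printed 5′ to 3′ with the seed in capitals. The following are shown because their values cannot be told apart.
miR-199a-3p: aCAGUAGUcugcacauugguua
miR-199b-3p: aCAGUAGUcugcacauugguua
miR-101a-3p: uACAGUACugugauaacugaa
miR-101c: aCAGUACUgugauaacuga
miR-199a-3p and miR-199b-3p are the same molecule made from hairpins on chromosomes 1 and 9 (miR-199a) and chromosome 2 (miR-199b), and both were listed at 17871, 19829 and 18196 CPM in replicates 1, 2 and 3. miR-101c, 19 bases long, equals positions 2 to 20 of the 21-base miR-101a-3p. Its values were lower than those of miR-101a-3p by only 6, 4 and 1 reads, against levels of 8358, 5902 and 3147 CPM for miR-101a-3p. In all, 26 arms with a mean of at least 1 CPM fell into 12 sets of identical values, and the repeated members took 1.86% to 2.15% of a library's total.

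A few miRNAs made up most of the library. Over the 3 controls, 6 arms carried 50% of the reads, 40 arms 90% and 146 arms 99%, and the 10 most abundant took 63.6%. Of the 1519 arms, 1167 had a read in at least 1 control library, 690 in all 3 and 472 reached 1 CPM in all 3. Replicates 1, 2 and 3 had reads for 974, 932 and 824 arms, and the expected numbers at the depth of the shallowest library were 831, 846 and 824. At equal depth the libraries thus differed little in the number of arms with a read. Whether these were the same arms at equal depth was not tested. Libraries made by ligation capture some RNA ends better than others, so the order of different miRNAs describes these libraries and not molecule numbers in the tissue.

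The most abundant arm was miR-1a-3p, a miRNA of striated muscle, with 195789, 214107 and 187047 CPM in replicates 1, 2 and 3. It was the first in each library and its mean, 198981 ± 13809 CPM (SD, n = 3), was 2.09 times that of the next arm. That arm was miR-148a-3p, an abundant miRNA of many tissues, with 79564, 65797 and 139697 CPM. It was highest in replicate 3, and in replicate 2 it lay below miR-203-3p. Without replicate 3 its mean was 72681 CPM, still the second. miR-203-3p, which promotes keratinocyte differentiation by repressing p63, had 61268, 67706 and 72175 CPM and was the most abundant epidermal miRNA.

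miR-143-3p, known from smooth muscle, had 75706, 58797 and 48126 CPM, so it outranked miR-203-3p only in replicate 1. miR-26a-5p, a growth-restraining miRNA carried in introns of the Ctdsp phosphatase genes, had 60709, 42004 and 28519 CPM. let-7i-5p, of the let-7 family that marks differentiated cells, had 41028, 41165 and 40679 CPM, the narrowest spread among arms of 100 CPM or more. The rest of the 10 most abundant were miR-27b-3p, let-7f-5p, miR-99a-5p and miR-21a-5p, with means between 22599 and 36510 CPM.

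**Figure D1:**
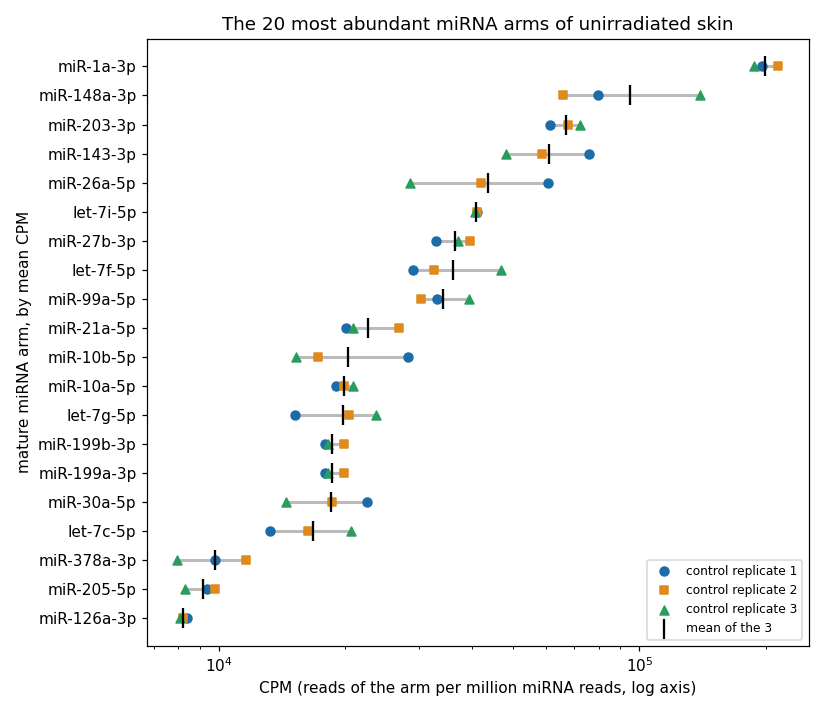
Level of the 20 most abundant miRNA arms (CPM, log axis) in each control library, ordered by the mean of the 3 libraries, with a grey line over their range. miR-1a-3p lies apart at the top, the ranges of most neighbours in the order overlap, and let-7i-5p shows the narrowest range.

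The order below the first place was only partly stable. Among the 20 steps from one arm to the next in this order, 6 were kept in all 3 libraries, 13 were turned round in at least 1 library and 1 was the tie of miR-199a-3p and miR-199b-3p. The steps kept were those from miR-1a-3p to miR-148a-3p, from miR-143-3p to miR-26a-5p, from let-7i-5p to miR-27b-3p, from miR-99a-5p to miR-21a-5p, from let-7c-5p to miR-378a-3p and from miR-205-5p to miR-126a-3p. Membership was steadier than order: 9 arms were among the 10 most abundant of every library, 18 among the 20 and 43 among the 50 most abundant.

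Marker lists then gave the share of reads on miRNAs typical of a cell type, which need not all come from that cell type. A list's share is a share of miRNA reads, not of cells: in a bulk sample, fewer cells of a type and less RNA per cell cannot be told apart. The 95% Wilson interval of a list's share in a library was at most 0.0496 percentage points to either side. It was narrower than the SD between libraries in every list but that of embryonic stem cells, where it was wider. The 14 lists together held 43.1% ± 2.49 of the reads (SD, n = 3), and the remainder fell on arms outside them. For orientation, the median arm among the 524 with a mean of at least 1 CPM had 24.4 CPM.

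Skeletal muscle miRNAs had the largest share of the 14 lists, 21%, 22.9% and 19.3% of the reads in replicates 1, 2 and 3. miR-1a-3p made up 94.4% of this, and with that arm left out of list and total the share was 1.48%. miR-133a-3p, which is made from the same transcripts as miR-1a-3p, had 7524, 8778 and 3037 CPM. Replicate 3 was low, so the ratio of miR-133a-3p to miR-1a-3p was 3.84% and 4.10% in replicates 1 and 2 and 1.62% in replicate 3. miR-206-3p, found almost only in skeletal muscle, had 5036, 4280 and 2686 CPM, and miR-133b-3p, from the same cluster on chromosome 1, had 1435, 1723 and 488 CPM. All 4 muscle arms were lowest in replicate 3, the last 3 of them by more than 1.5 times. miR-206-3p carries the seed of the miR-1 family.
miR-206-3p: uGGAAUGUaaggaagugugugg
Of the 15 muscle arms in the table, 7 reached 1 CPM in all 3 libraries. miR-208b-3p and miR-208b-5p, from the gene of a slow and cardiac myosin, had 1 read each in the 3 libraries together. miR-499-5p, from another such myosin gene, had 3.10, 1.65 and 4.25 CPM and miR-499-3p had no read.

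Epidermal miRNAs held 8.17%, 8.86% and 9.55% of the reads, a mean of 8.86% ± 0.691 (SD, n = 3). miR-203-3p made up 75.7% of the list. miR-205-5p, which maintains epidermal and hair follicle progenitors, followed with 9377, 9783 and 8314 CPM, and the ratio of miR-205-5p to miR-203-3p ran from 11.5% to 15.3%. Both miR-203-3p and miR-205-5p were among the 20 most abundant arms. The miR-200 family, which keeps epithelial cells from turning mesenchymal by repressing Zeb1 and Zeb2, is shown with them because it falls into groups of different seed.
miR-203-3p: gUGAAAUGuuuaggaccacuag
miR-205-5p: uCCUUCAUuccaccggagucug
miR-200b-3p: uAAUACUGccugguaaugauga
miR-200c-3p: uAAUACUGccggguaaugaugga
miR-200a-3p: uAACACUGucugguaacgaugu
miR-141-3p: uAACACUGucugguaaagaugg
miR-203-3p maps to chromosome 12 (chr12:112130927-112130948, plus strand, in no other annotated gene on that strand) and miR-205-5p to chromosome 1 (chr1:193507503-193507524, minus strand, in an exon of the long non-coding RNA 4631405K08Rik). miR-200b-3p had 3756, 4533 and 7719 CPM and miR-200a-3p, its neighbour on chromosome 4, had 3291, 2786 and 3946 CPM. Their ratio was 87.6%, 61.5% and 51.1%, so replicate 3 was high in miR-200b-3p more than in miR-200a-3p. miR-429-3p, from the same cluster, had 799, 771 and 742 CPM. From the second cluster on chromosome 6, miR-200c-3p had 2504, 2430 and 1884 CPM, while miR-141-3p had 224, 122 and 154 CPM.

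The miR-183 cluster, made as a single transcript in sensory and epithelial cells, held 0.921% ± 0.0424 of the reads (SD, n = 3). Its share was 0.891%, 0.970% and 0.902%. miR-182-5p had 5081, 5595 and 4973 CPM, miR-183-5p 3149, 3414 and 3401 CPM and miR-96-5p 676, 675 and 640 CPM. The ratio of miR-96-5p to miR-182-5p was 12.1% to 13.3% in all 3 libraries. The passenger arms of the cluster stayed at or under 7.28 CPM.

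Stromal miRNAs, those of smooth muscle, fibroblasts and blood vessel lining together, held 13.3%, 11.9% and 10.1% of the reads. Over the mean of the 3 libraries 51.6% of this was miR-143-3p, and the smooth muscle list had shares of 7.75%, 6.09% and 4.97%. Of the smooth muscle list 97.1% was miR-143-3p, and its other arms held 0.180% of the reads. miR-145a-5p, made from the same transcript as miR-143-3p and like it a regulator of smooth muscle differentiation, averaged 1443 ± 268 CPM (SD, n = 3), 42.2 times less than miR-143-3p. The fibroblast list held 4.67% ± 0.323 of the reads, or 2.86% with the identical miR-199a-3p and miR-199b-3p counted once. Within it, miR-199a-5p had 7844, 7772 and 5729 CPM, miR-199b-5p 2212, 1882 and 939 CPM and miR-214-3p, from the Dnm3os transcript of mesenchymal cells, 586, 535 and 239 CPM. Replicate 3 was the lowest in each of these 3 arms. miR-126a-3p, from an intron of the endothelial gene Egfl7, had 8381, 8231 and 8087 CPM, the second-narrowest spread among arms of 100 CPM or more. The endothelial share was 0.855% ± 0.0236, and 96.3% of it was miR-126a-3p.

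Blood miRNAs were a small part, 0.274%, 0.486% and 0.190% of the reads, and the part that differed most between libraries was that of red blood cells. The red cell share was 0.187%, 0.383% and 0.114%, a mean of 0.228% that was 0.151% without replicate 2. These shares hold the identical values of miR-486a-5p and miR-486b-5p both, and with identical arms counted once the mean was also 0.151% for red cells and 0.241% for blood. miR-451a, which Argonaute 2 cuts without Dicer in erythroid cells, had 701, 813 and 430 CPM. miR-486a-5p, found in both red cells and muscle, had 568, 1474 and 338 CPM with an identical value for miR-486b-5p, so its ratio to miR-451a was 0.809 and 0.787 in replicates 1 and 3 and 1.81 in replicate 2. miR-144-5p, encoded beside miR-451a, had only 13.6, 25.1 and 7.70 CPM.

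White blood cell miRNAs held 0.0766% ± 0.0115 of the reads and myeloid miRNAs 0.0124% ± 0.00249 (SD, n = 3 each). miR-142a-5p, present in nearly all blood cells, had 298, 441 and 355 CPM, against 60.9, 60.9 and 85.0 CPM for its 3p arm. miR-150-5p, of mature lymphocytes, had 132, 130 and 53.4 CPM and was low in replicate 3. miR-155-5p, which activated leukocytes induce, had 67.0, 81.7 and 51.3 CPM. miR-223-3p, the neutrophil miRNA, had 85.8, 101.4 and 56.6 CPM, and miR-147-3p, induced in stimulated macrophages, had 0.868, 0.331 and 3.98 CPM. In the 3 control libraries no myeloid arm had a mean of 100 CPM.

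Markers of rarer or foreign cells were low. The pigment cell list held 0.0134% ± 0.00326 of the reads. miR-211-5p, from the melanocyte gene Trpm1, had 53.9, 79.9 and 117 CPM and miR-204-5p, its relative from Trpm3, had 43.2, 60.9 and 39.0 CPM. miR-375-3p, known from Merkel and other endocrine cells, had 40.3, 43.7 and 96.4 CPM. Of the embryonic stem cell list 6 of 20 arms were in the table, none reached 1 CPM in all 3 libraries and the highest, miR-295-3p, averaged 0.8996 CPM. miR-122-5p, the defining miRNA of hepatocytes, averaged 1.34 CPM.

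In some of these lists 1 library stood out. The liver and gut list held 0.0470%, 0.04997% and 0.209% of the reads, a mean of 0.102% that became 0.0485% without replicate 3. The excess was miR-192-5p, with 395, 408 and 1895 CPM, and miR-194-5p, encoded beside it, with 70.2, 87.2 and 185 CPM. miR-192-5p had the highest coefficient of variation among arms of 100 CPM or more, and its sequence is given for this reason.
miR-192-5p: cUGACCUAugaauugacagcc
The neural list held 0.0270%, 0.0584% and 0.0401%, and here replicate 2 was highest. miR-124-3p, the miRNA of neurons, had 3.84, 139 and 43.0 CPM and miR-9-5p, also neural, had 80.6, 203 and 87.1 CPM. miR-128-3p, a brain-rich miRNA that other tissues also make, had 152, 193 and 250 CPM and did not follow them.

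**Figure D2:**
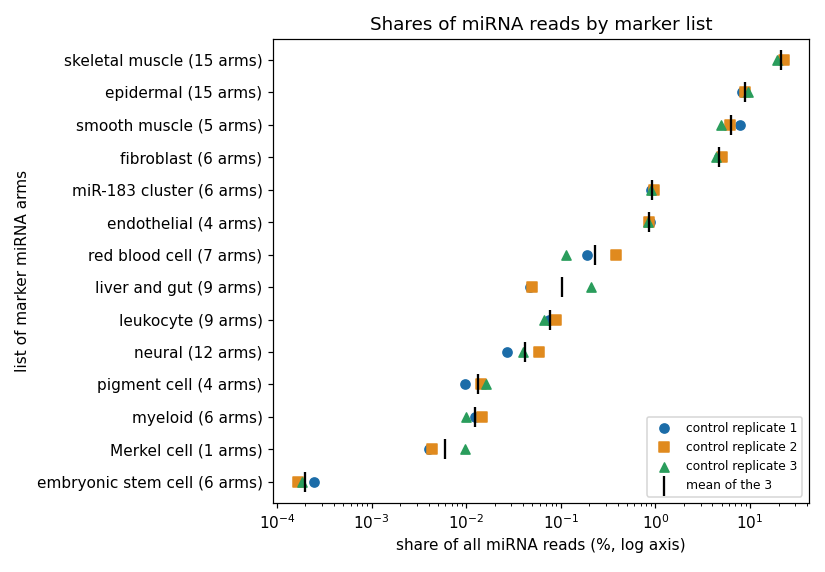
Share of all miRNA reads (%, log axis) taken by each of the 14 marker lists in each control library, with the mean of the 3 as a black tick. Muscle lies near 21.1%, epidermis near 8.86%, and the libraries lie furthest apart in the liver and gut, red blood cell and Merkel cell lists.

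Grouping arms by seed showed which target specificities carried the reads. Among arms with a sequence in the reference, which leaves out miR-1a-3p and miR-143-3p, the let-7 seed was first, with 11.1%, 12.6% and 14.8% of all reads in replicates 1, 2 and 3, spread over 9 arms of 100 CPM or more. let-7i-5p was 32.0% of the group, and let-7f-5p (28990, 32410 and 46898 CPM) and let-7g-5p (15183, 20414 and 23705 CPM) followed. miR-98-5p, the family member from an intron of Huwe1 on the X chromosome, had 364, 370 and 755 CPM. The following share the seed and differ only behind it.
let-7i-5p: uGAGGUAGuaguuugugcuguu
let-7f-5p: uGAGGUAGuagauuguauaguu
let-7g-5p: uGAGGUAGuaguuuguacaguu
miR-98-5p: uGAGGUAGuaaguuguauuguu
How the authors' counting split reads between arms this alike is not known here, so values of single members are uncertain.

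The second seed group, that of miR-148 and miR-152, held 8.66%, 7.36% and 14.7% of the reads, and 92.9% of it was miR-148a-3p. Its members are printed because they did not move together. miR-148a-3p was highest in replicate 3, miR-148b-3p had 1388, 2089 and 2484 CPM, and miR-152-3p had 5623, 5687 and 4595 CPM and was lowest in replicate 3.
miR-148a-3p: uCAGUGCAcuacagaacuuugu
miR-152-3p: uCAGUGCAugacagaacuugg
miR-148b-3p: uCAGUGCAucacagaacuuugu
The miR-26 group, 7.03%, 4.82% and 3.24% of the reads, behaved otherwise. miR-26b-5p had 9557, 6183 and 3919 CPM and its ratio to miR-26a-5p was 15.7%, 14.7% and 13.7%. The hairpins lie on chromosomes 9 and 10 (miR-26a) and 1 (miR-26b), each in an intron of a Ctdsp gene. Both arms differed between libraries by more than their ratio did. How the counting split reads between arms this alike is not known here either.
miR-26a-5p: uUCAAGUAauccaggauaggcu
miR-26b-5p: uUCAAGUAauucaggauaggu
Next came miR-203-3p alone with 6.70% ± 0.548, the miR-27 group with 4.11% ± 0.370, the miR-99 and miR-100 group with 4.10% ± 0.381, the miR-10 group with 4.01% ± 0.618 and miR-199a-3p with its identical copy at 3.73% ± 0.210 (SD, n = 3 each). The miR-199a-3p share holds the identical value of both arms. Each arm averaged 18632 CPM, and counted once the group would lie below those of miR-30a-5p (2.35%) and miR-21a-5p (2.26%). The seed groups cover only arms with a sequence in the reference. miR-1a-3p, miR-143-3p, miR-378a-3p, miR-30d-5p and miR-133a-3p had none and belong to no group here.

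**Figure D3:**
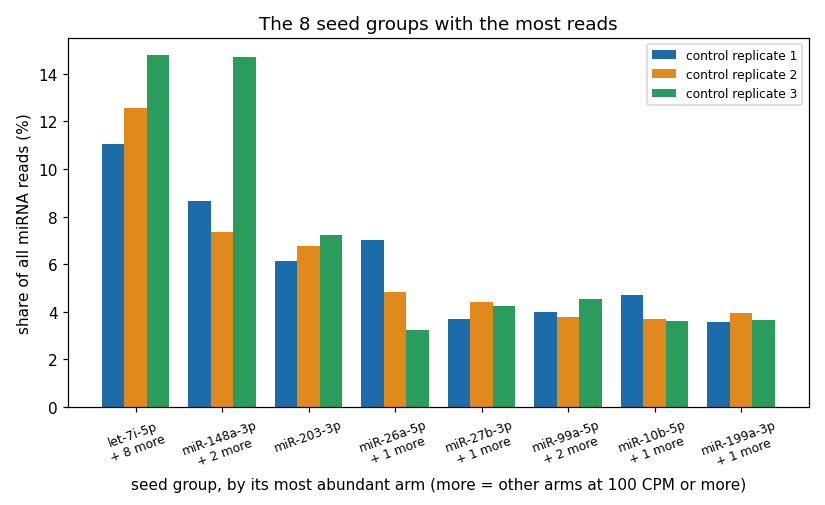
Share of all miRNA reads (%) of the 8 seed groups with the most reads among arms with a reference sequence (miR-1a-3p and miR-143-3p have none), 1 bar per control library, each group named by its most abundant arm. The let-7 and miR-148 groups are highest in replicate 3, at 14.8% and 14.7%, and the miR-26 group is highest in replicate 1, at 7.03%. The miR-199a-3p group holds the identical values of miR-199a-3p and miR-199b-3p both.

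Abundant arms mostly began with U. Among matched arms with a mean of at least 1 CPM, 40.3% of the 449 began with U, while such arms held 71.1% ± 1.44 of the matched reads (SD, n = 3). Without miR-148a-3p the share was 66.6%. Arms beginning with C were 22.05% of the arms and held 3.17% ± 0.326 of the reads, and those beginning with G were 10.2% of the arms and 10.2% ± 0.497 of the reads, of which miR-203-3p is the main member. Arms beginning with A were 27.4% of the arms and held 15.6% ± 0.978 of the reads, so A did not follow U. The A share holds the identical values of miR-199a-3p and miR-199b-3p both, and miR-101c, which nearly repeats miR-101a-3p. Argonaute proteins are known to hold a 5′ U or A better than a C or G. Arms of 22 bases held 76.1% ± 3.07 of the matched reads.

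Arm preference was then tested, the question being which side of a hairpin gave more reads and whether that difference exceeded the spread between libraries. The table held both arms of 499 hairpins, and 183 with at least 10 CPM over both arms in every control library were tested with limma on the log2 ratio of 5p to 3p within a library, with 1 CPM added to each arm. At a Benjamini-Hochberg adjusted p under 0.05, 168 hairpins (91.8%) preferred an arm, 87 (47.5%) the 5p arm and 81 (44.3%) the 3p arm, and 15 did not pass. In 169 hairpins the same arm was ahead in all 3 libraries, in 88 the 5p arm and in 81 the 3p arm. The dominant arm took a median 97.5% of a hairpin's reads, more than 99% in 63 hairpins and under 75% in 33. Weighted by reads, the 5p arms held 41.5%, 42.2% and 38.3% of the reads of tested hairpins, and minor arms held 2.64%, 2.66% and 1.96%. The test weighs the ratio against the spread between libraries and cannot see a capture bias that favours the same arm in each library.

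miR-1a, whose 5p arms are listed by hairpin copy, was not among the 183. With copies summed its log2 ratio was -14.02 and that of miR-103 was -10.57. Among the tested hairpins of at least 100 CPM, the 3p arm was most dominant in miR-206, miR-101a, miR-23a, miR-101b, miR-203 and miR-381. miR-206-5p had 1, 1 and 0 reads in replicates 1, 2 and 3 and miR-101b-5p had 1, 0 and 0. The minor arms of miR-23a, miR-381, miR-146a and miR-100 likewise had at most 7 reads in a library. For such hairpins the size of the ratio and the order depend on the added 1 CPM: with 0.1 CPM added miR-146a moved to 13.36, against 11.32, and passed let-7g (13.17). miR-203-5p was well covered, with 30.5, 29.8 and 34 CPM, which made 0.0498%, 0.0440% and 0.0471% of the hairpin's reads, a steady fraction. Its log2 ratio was -11.01 ± 0.16 (SE, limma adjusted p = 3.7e-08). The 5p arm was most dominant in let-7g, let-7i, miR-99a, miR-21a, miR-100 and miR-146a. let-7i-3p had 8.31, 7.11 and 4.78 CPM against 41028, 41165 and 40679 CPM of let-7i-5p, and miR-21a-3p had 5.21, 3.97 and 10.6 CPM against 20055, 26876 and 20866 CPM of miR-21a-5p, a miRNA induced in wounded tissue.

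The marker lists held hairpins of both preferences. Of 7 tested epidermal hairpins 6 preferred the 3p arm, and miR-205 the 5p arm. All 3 hairpins of the miR-183 cluster preferred 5p and all 3 tested muscle hairpins, miR-133a, miR-133b and miR-206, preferred 3p. The 3 fibroblast hairpins preferred 3p, both pigment cell hairpins 5p and both myeloid ones 3p. The fibroblast hairpins miR-199a and miR-199b were set against the same 3p value, so their calls are not independent. In all, 8 tested hairpins shared an arm's value with another hairpin. Among 4 leukocyte hairpins, miR-142a, miR-150 and miR-155 preferred 5p and miR-342 preferred 3p. These counts stand against 47.5% and 44.3% of all tested hairpins, and lists of 2 to 7 hairpins are too short to be set apart from that.

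In 21 hairpins both arms averaged 100 CPM or more, and 4 of these showed no preference. miR-127 and miR-434, which lie beside each other on chromosome 12 in the imprinted Dlk1-Dio3 region, are printed as examples.
miR-127-5p: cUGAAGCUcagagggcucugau
miR-127-3p: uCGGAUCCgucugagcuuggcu
miR-434-5p: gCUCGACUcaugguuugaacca
miR-434-3p: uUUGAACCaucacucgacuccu
The 5p arm made up 54.1%, 38.8% and 38.1% of miR-127 in replicates 1, 2 and 3 (log2 ratio -0.37 ± 0.27, limma adjusted p = 0.23). In miR-434 it was 44.4%, 49.6% and 73.6% (0.38 ± 0.38, adjusted p = 0.37). miR-434-5p had 456, 580 and 948 CPM and miR-434-3p 571, 590 and 341 CPM, so replicate 3 was the highest library for one arm and the lowest for the other. Without replicate 3 the log2 ratio of miR-434 was -0.17 (adjusted p = 0.52).

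The other hairpins without a preference were miR-708 and miR-106b. miR-708, from an intron of Tenm4, had 51.5%, 57.1% and 35.9% of its reads on the 5p arm (-0.11 ± 0.30, limma adjusted p = 0.72; 0.25 without replicate 3, adjusted p = 0.35). miR-106b, of the proliferation cluster in Mcm7, had 59.5%, 39.5% and 28.1% (-0.47 ± 0.38, adjusted p = 0.27). A near-balanced hairpin that passed was miR-382, with 36.2%, 39.7% and 42.1% on the 5p arm (-0.62 ± 0.22, adjusted p = 0.032); it did not pass without replicate 1 (adjusted p = 0.10) or replicate 2 (0.17), with 0.1 CPM added (0.064) or with DESeq2 on the reads (0.054). Both arms of miR-199a were abundant, with 27.5% ± 3.32 of reads on the 5p arm (SD, n = 3), where the 3p value cannot be told apart from that of miR-199b-3p.

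The more abundant arm of a hairpin more often carried a 5′ U. Sequences of both arms were at hand for 152 tested hairpins, of which 138 had passed the arm test. Dominant here means the more abundant arm, whether or not the hairpin passed. The dominant arm began with U in 86 of them and the minor arm in 31. In 71 hairpins only the dominant arm began with U, and in 16 only the minor arm. A first A was found in 33 dominant and 47 minor arms, a first C in 21 and 46 and a first G in 12 and 28. This is a description over hairpins, which are not independent.

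**Figure D4:**
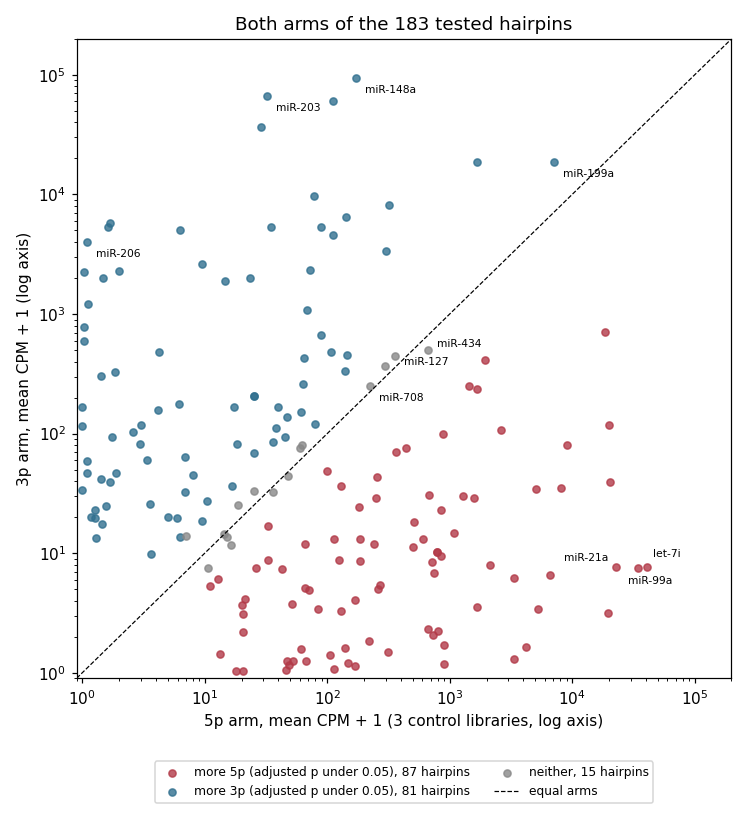
Mean CPM + 1 of the 5p arm (x, log axis) and of the 3p arm (y, log axis) for the 183 tested hairpins, coloured by limma call at adjusted p under 0.05. Most points lie far from the dashed line of equal arms, 87 on the 5p side and 81 on the 3p side, and the 15 hairpins without a call lie along it.

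Hairpins that lie together in the genome, and are often made as a single transcript, gave unequal amounts of mature RNA. Clusters were hairpins within 10 kb on a strand (GENCODE annotation of GRCm38), with at least 2 hairpins having an arm of 100 CPM. Over 17 such clusters the highest hairpin's arm exceeded the lowest hairpin's by a median of 7.17 times. Arms listed under a single name for several hairpin copies were not used. For miR-24-2, let-7c-2 and let-7a-1 the arm used was therefore the minor one. let-7c-2-3p and let-7a-1-3p had identical values, both with a mean of 147 CPM. The ratios of their clusters, 34.5 for let-7b-5p to let-7c-2-3p and 11.4 for let-7d-5p to let-7a-1-3p, thus rest on the same value. The miR-24-2 hairpin was represented by miR-24-2-5p (595 CPM) and not by miR-24-3p (4262 CPM). The median and range hold only for the arms used. Among these arms the smallest ratio was 1.59, between miR-20a-5p and miR-17-5p of the miR-17/92 cluster. The largest was that of miR-143-3p to miR-145a-5p. miR-27b-3p exceeded miR-23b-3p 7.17 times and miR-182-5p exceeded miR-96-5p 7.86 times. Such ratios hold capture differences between arms as well as levels.

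The spread between the control libraries was larger than counting error for most arms. Among 173 arms with a mean of at least 100 CPM, the median coefficient of variation (SD over mean, n = 3) was 20.2%. It was 13.3% without replicate 3, 17.9% without replicate 1 and 20.01% without replicate 2. Medians with a replicate left out come from SDs of fewer libraries, so they do not compare directly with 20.2%. Counting error alone gave a median of 2.83% for arms of 100 to 1000 CPM and 0.236% above 10000 CPM. The spread exceeded the counting error in all 173. It was under 10% in 30 arms and over 40% in 25. The steadiest were let-7i-5p (0.611%), miR-126a-3p (1.79%), miR-24-3p (2.42%), miR-181d-5p (2.83%), miR-96-5p (3.09%) and miR-20a-5p (3.52%). The most variable were miR-192-5p (95.9%), miR-486a-5p and miR-486b-5p (75.7%), miR-106b-5p (56.5%), miR-9-5p (55.8%), miR-194-5p (54.3%), miR-29b-3p (53.2%) and miR-133b-3p (53.2%).

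Replicate 3 most often lay outside the other controls. Of the 173 arms, 30 were lower and 12 higher in replicate 3 than in both other controls by more than 1.5 times, against 5 and 5 for replicate 1 and 2 and 3 for replicate 2. Those lower in replicate 3 included miR-133b-3p, miR-133a-3p and miR-206-3p of muscle, miR-451a of red cells, miR-150-5p of lymphocytes, miR-214-3p and miR-199b-5p of fibroblasts and the collagen regulators miR-29a-3p (3460, 2874 and 1549 CPM) and miR-29b-3p (178, 111 and 56.1 CPM). miR-16-5p, a cell cycle repressor, had 2513, 1855 and 863 CPM. Those higher included miR-192-5p, miR-98-5p, miR-148a-3p, miR-200b-3p and miR-340-5p (591, 752 and 1194 CPM). miR-214-3p was low in replicate 3 while miR-214-5p was high there (130, 102 and 201 CPM), as in miR-434. Replicate 3 was also the shallowest library, and the part of depth in these differences was not tested.

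**Figure D5:**
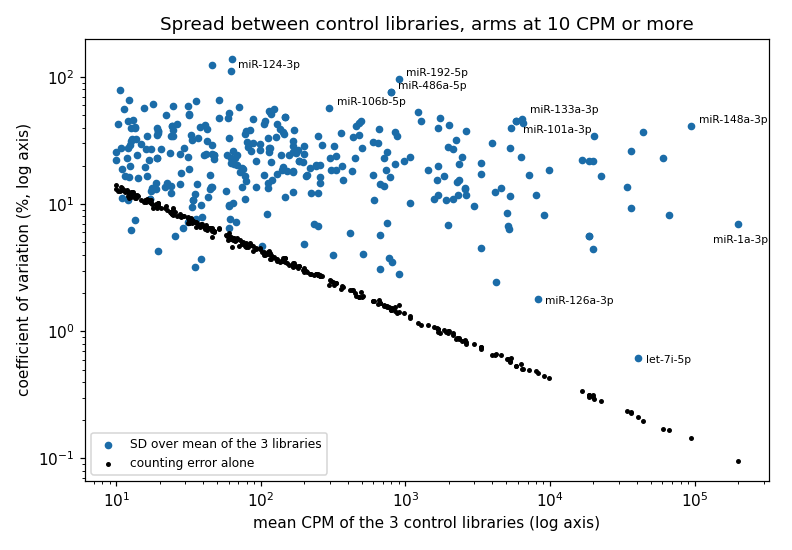
Coefficient of variation over the 3 control libraries (%, log axis) against mean CPM (log axis) for arms of at least 10 CPM, with the value that counting error alone would give as black points. Nearly all arms lie above the counting error, let-7i-5p at 0.611% comes nearest to it among the most abundant, and miR-192-5p stands at 95.9%.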

How the data were processed

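Small RNA of skin was sequenced on an Illumina NextSeq after library preparation with the NEBNext Multiplex kit, per the labels' protocols. The submitters' processing notes name the build mm9; the aligner, the counter and the miRBase release are not named in those notes. The deposited values are CPM by the authors, and each library sums to 1000000. In the controls 100% of values were whole multiples of 1 read (tolerance 0.01 reads), so reads were recovered. Columns were matched to samples by title.

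Means, SDs, shares, ranks and coefficients of variation were computed from CPM over the 3 controls. Arm ratios were tested with limma 3.58.1 (R 4.3.3) with a prior variance trend on abundance, two-sided, at a pseudocount of 1 CPM. The ratio within a library pairs the arms because both come from the same RNA. An exact permutation test of 3 ratios cannot go below p = 0.25 and was not used. edgeR 4.0.16 and DESeq2 1.42.0 on recovered reads were alternatives, and the fits were tested on simulated data. Sequences, names and positions are RefSeq's for GRCm38.p6; coordinates of that build were not set against mm9.

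The members and lists were chosen with earlier results of these data known. Arms named are the 20 most abundant, up to 6 per list, the 6 most one-sided hairpins per direction, the 8 most balanced, up to 6 whose leading arm changed, the 8 most and 6 least variable arms and the 8 largest seed groups. Named after their values were seen are arms apart in replicate 3, cluster examples and the miR-196, miR-10 and miR-615 arms.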

Additional observations from a re-analysis of the deposited data

How the results depend on the processing

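The arm preference counts, 87 for 5p and 81 for 3p, were 86 and 80 without the replicate block, that is with the arms of a library unpaired, 87 and 81 with edgeR and 86 and 80 with DESeq2 on reads with the replicate block. Without a filter 458 hairpins were tested, 122 preferred 5p and 126 preferred 3p, and 162 of the 168 calls were kept. At 100 CPM or more 113 were tested, 58 preferred 5p and 49 preferred 3p. The cause was not tested. With copies of a hairpin summed they were 102 and 89. Without a replicate they were 84 to 88 and 74 to 83. With a replicate left out the log2 ratio of miR-708 ran from -0.37 to 0.25, that of miR-434 from -0.17 to 0.72 and that of miR-376b from -0.035 to 0.26. Each changed direction, miR-708 and miR-434 without replicate 3 and miR-376b without replicate 1, and none passed the test. With muscle arms out of the total, shares were 11.2% epidermal, 1.17% miR-183 cluster, 0.0157% myeloid, 0.0973% leukocyte, 1.08% endothelial, 7.95% smooth muscle, 5.92% fibroblast, 15.0% stromal, 0.0170% pigment cell and 0.000253% embryonic stem cell. With only miR-1a-3p left out they were 11.1%, 1.15%, 0.0155%, 0.0958%, 1.07%, 7.83%, 5.83%, 14.7%, 0.0167% and 0.000249% in the same order, and 1.48% for muscle. With identical arms counted once the fibroblast share was 2.86%, the stromal share 10.1%, the red cell share 0.151% and the blood share 0.241%. The share of matched reads starting with U was 66.6% without miR-148a-3p. At 10 CPM in every control library 296 arms remained of 472. The median coefficient of variation was 13.3% to 20.01% when a replicate was left out. Depth limits arms below about 1 CPM.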

Other observations

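Some arms encoded in Hox gene clusters, which hold the genes of body position, differed between the controls. miR-196a-5p, encoded in the Hoxb and Hoxc clusters, had 165, 14.6 and 10.9 CPM in replicates 1, 2 and 3 (1329, 88 and 41 reads), and miR-196b-5p, encoded in the Hoxa cluster, had 111, 15.1 and 11.4 CPM. Replicate 1 thus exceeded both other controls for both arms. miR-10b-5p, of the Hoxd cluster, had 28206, 17250 and 15261 CPM and was also highest in replicate 1. miR-10a-5p, of the Hoxb cluster, had 19028, 19835 and 20795 CPM and miR-615-3p, of the Hoxc cluster, had 54.8, 52.3 and 66.1 CPM, and neither was highest in replicate 1. Among arms of at least 10 CPM, only miR-196a-5p, miR-196b-5p, miR-124-3p and miR-192-5p had a coefficient of variation over 90%. Replicate 1 was highest for both miR-196 arms, replicate 2 for miR-124-3p and replicate 3 for miR-192-5p. For miR-124-3p the 3 values, 3.84, 139 and 43.0 CPM, all lay far apart. These arms were chosen after their values were seen, and the labels do not give the body site of a sample.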
